A study of Mus musculus with 29 samples.

Results

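Gene expression was compared between mouse embryonic stem cells (mESC) that lack estrogen receptor beta by their label (BERKO, for ERβ, encoded by Esr2) and wild-type (WT) mESC, across all genes. The arrays were chosen by their source labels alone, which gave 2 BERKO and 2 WT arrays, 4 of the 29 arrays of the series. None of the 4 cultures received a treatment. They were kept feeder-free in knockout-DMEM medium with LIF, the cytokine that holds mouse stem cells in self-renewal. The other arrays covered neural precursor cells (NPC), midbrain neural precursors (mDPC) and cells matured to midbrain neurons (MN) made from both lines, part of them with the ERβ agonist LY3201. Their untreated BERKO and WT arrays (4 for NPC, 4 for mDPC and 5 for MN) served here to ask which stem cell differences were also seen later. Both BERKO mESC titles carry a common number, with a suffix in one of them, so the pair may come from 1 culture. The labels give neither the number of clones nor the deleted part of Esr2, so a difference between the lines and an effect of the deletion cannot be told apart. Where p-values are given, they measure the spread between arrays, which may be partly technical.

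Mouse embryonic stem cells renew themselves through a network of transcription factors, with Pou5f1, Sox2 and Nanog at its core. Early germline genes, imprinted genes and the X chromosome are known to be sensitive to the culture history of such cells. ERβ is a nuclear receptor that binds DNA as a dimer at estrogen response elements and changes the transcription of nearby genes when it holds a ligand.

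Values are log2 array signals, and a difference is the BERKO mean minus the WT mean ± the standard error (SE) of a limma model, with n = 2 arrays per group. A gene was called when its adjusted p was under 0.05. Background refers to the 95th percentile of the negative control probes, which lay between 7.346 and 7.661 in the 4 arrays. A gene is said to be above background when both arrays of at least 1 group exceeded their own percentile. The array medians over all transcript clusters were 3.67 to 3.71. The WT arrays had Pearson r = 0.998 across genes, and the SD of their differences was 0.216. The BERKO arrays had r = 0.9973 and an SD of 0.253. Between lines the SD was 0.347 and 0.352 for BERKO array 1 and 0.292 and 0.29 for BERKO array 2. Genes are not independent replicates, so these values describe the arrays only.

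All 4 arrays carried stem cell markers. The 8 markers Pou5f1, Sox2, Nanog, Esrrb, Zfp42, Klf4, Dppa5a and Utf1 were above background in every array, at 8.63 to 19.54, and none differed between lines by the test. Their summed levels were 102.7 and 102.8 in WT and 103.0 and 103.8 in BERKO. Of the markers of primitive endoderm, mesoderm, neural cells, trophectoderm and feeder fibroblasts, 21 of 23 had a value, and all of these stayed below background in all 4 arrays. Sox1, an early neural factor, was the highest of them with 6.67 in WT array 2. The summed neural markers were 25.0 and 26.6 in WT and 27.3 and 26.2 in BERKO, and the summed fibroblast markers were 23.8 and 24.2 against 24.7 and 24.4.

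The gene named by the label went against it. Esr2 was 3.32 and 3.43 in the WT arrays and 3.87 and 4.30 in the BERKO arrays, a difference of 0.71 ± 0.13 (adjusted p = 0.00209). Both groups lay below background and did not overlap. The same direction passed the test at the 3 later stages. A probe set outside the deleted part would check nothing, so BERKO and WT name the libraries as labelled throughout. Esr1, the gene of the related receptor ERα, was 3.39 and 3.52 in WT and 3.52 and 3.43 in BERKO. Xist, the RNA that coats an inactive X chromosome, was 4.53 and 4.49 against 4.49 and 4.58. Eif2s3y, Kdm5d and Uty, which lie on the Y chromosome, stayed at or below 3.71 in all 4 arrays. Of 8 tested members of a list of X inactivation and Y-linked genes, none was called.

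Of 22063 genes tested, 929 (4.21%) were called, 370 higher in BERKO (1.68%) and 559 lower (2.53%). The lines did not overlap at any called gene, while they did not overlap at 47.8% of all tested genes. The change was at least 2-fold for 23 of the higher genes (0.104% of those tested) and for 49 of the lower genes (0.222%). Of the called genes, 503 were above background in at least 1 group, 203 higher and 300 lower. The median absolute difference of the called genes was 0.541, and the median over all tested genes was 0.03. The balance of directions moved with the scaling, with 288 higher and 619 lower after each array was centred on its median. Leaving out 1 array changed the counts more. Without BERKO array 1, 368 genes were called, and without BERKO array 2, 1050 were. Without WT array 1, 448 genes were called, and without WT array 2, 422 were. When only the 4 mESC arrays were fitted, 157 genes were called, 73 of them also called by the model of all arrays, which takes its spread from every stage.

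**Figure D1:**
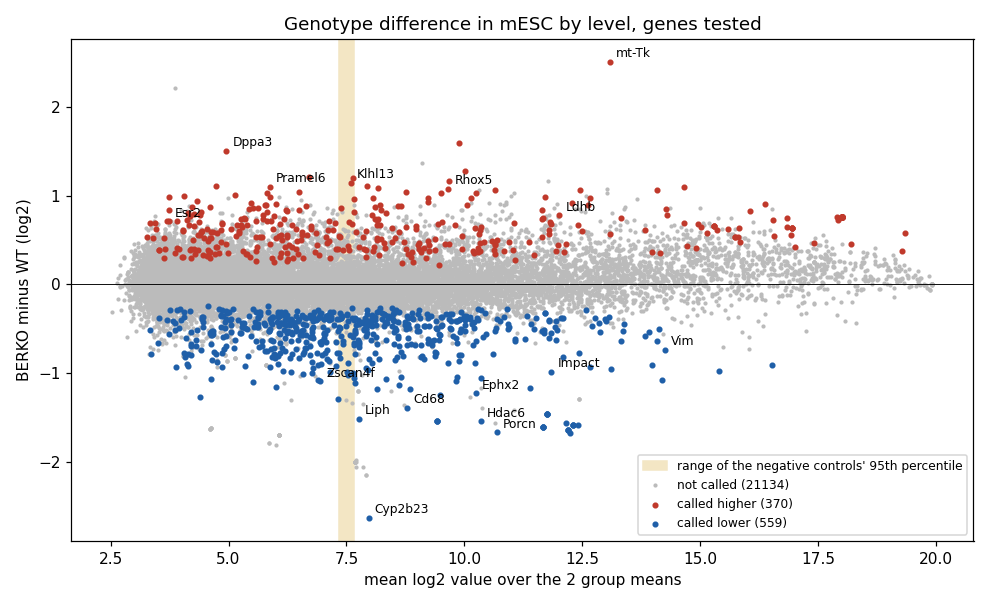
Difference between BERKO and WT stem cells (vertical axis, log2) against the mean level (horizontal axis, log2) for each of the 22063 genes tested, with 370 genes called higher in red and 559 called lower in blue. The shaded band is the range of the negative controls' 95th percentile over the 4 arrays; Cyp2b23 at -2.64 lies lowest among the called genes and mt-Tk at 2.51 highest.

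The classes of transcript were unevenly represented. Protein-coding genes gave 198 higher and 499 lower calls among 14533 tested (4.8% called). Pseudogene entries gave 94 higher and 16 lower among 3286 (3.35%). Ribosomal RNA entries gave 45 higher and no lower calls among 62 (72.6%). Long noncoding RNAs gave 14 calls among 1553 (0.901%).

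Cyp2b23, a cytochrome P450 of the family that oxidises drugs and steroids, was 9.27 and 9.31 in the WT arrays and 6.29 and 7.01 in the BERKO arrays. The difference was -2.64 ± 0.22 (adjusted p = 1.11e-06) and lay between -3.00 and -2.28 with 1 array left out. Both BERKO values were below background. With the background level in place of such values, Cyp2b23 was at least 3.45-fold lower in BERKO. Its neighbours in the annotation's order gave a mixed picture. Cyp2s1, another P450, was also called lower (-0.52 ± 0.10, adjusted p = 0.00648), at levels below background, and the other 3 of its 4 nearest tested genes were not called. The call of Cyp2s1 was lost without WT array 2 (-0.37) or BERKO array 1 (-0.47).

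Liph, a lipase that makes lysophosphatidic acid, was 8.43 and 8.60 in WT and 6.88 and 7.12 in BERKO, a difference of -1.52 ± 0.11 (adjusted p = 3.27e-07). Cd68, a lysosomal glycoprotein best known from macrophages, was 9.38 and 9.59 in WT against 7.98 and 8.21 in BERKO, lower by 1.39 ± 0.13 (adjusted p = 2.69e-06). In each case both arrays of a line lay within 0.3 of each other and far from the other line. Both BERKO values of Liph were below background, and against that level it was at least 2.02-fold lower. None of the 4 nearest tested genes of Liph or of Cd68 was called. Mep1b, a membrane metalloprotease, was 7.90 and 8.04 against 6.45 and 6.91, a difference of -1.29 by the cluster used and of -1.78 by its other cluster. Both BERKO values of the cluster used were below background, and against that level Mep1b was at least 1.38-fold lower. The pseudogene entry Tdgf1-ps2 was 8.97 and 8.78 against 7.62 and 7.997 (-1.06 ± 0.23), and its call was lost without WT array 1 (-0.97), WT array 2 (-1.16) or BERKO array 1 (-0.88).

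Ephx2, the soluble epoxide hydrolase of lipid signalling, was 10.88 and 10.82 in WT and 9.63 and 9.62 in BERKO, a difference of -1.23 ± 0.13 (adjusted p = 1.85e-05). Epha4, a receptor for ephrins, was 9.41 and 9.48 in WT and 8.27 and 8.26 in BERKO. Fam189a2, a membrane protein gene, was 8.19 and 8.28 against 7.22 and 7.03, and Pros1, the gene of the anticoagulant protein S, was 10.46 and 10.28 against 9.31 and 9.25. The arrays of each line agreed closely for these genes, and the lines were about 1.1 to 1.2 log2 units apart. Both BERKO values of Fam189a2 were below background, and against that level it was at least 1.66-fold lower. Hspb1, a small heat shock protein, behaved less evenly, with 12.29 and 11.64 in WT and 10.32 and 11.28 in BERKO (-1.17 ± 0.27, adjusted p = 0.0168). Its call was lost without BERKO array 1 (-0.69) and without WT array 1 (-0.84). Among genes below background, Xlr5b, an X-linked gene of a lymphocyte-regulated family, was 6.56 and 6.62 against 5.43 and 5.42, and Aox3, an aldehyde oxidase, was 6.11 and 6.05 against 4.98 in both BERKO arrays.

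The largest rises were smaller and more often lay below background. Dppa3, a maternal factor that protects DNA methylation and marks naive stem cells and germ cells, was 3.90 and 4.50 in WT and 5.59 and 5.83 in BERKO. The difference was 1.51 ± 0.15 (adjusted p = 8.45e-06), with both lines below background. Klhl13, an X-linked substrate adaptor of a cullin ubiquitin ligase, was 7.03 and 6.99 in WT against 8.19 and 8.13 in BERKO (1.15 ± 0.09, adjusted p = 6.49e-07), at least 1.57-fold higher than the background level of the WT arrays. Rhox5, an X-linked homeobox gene of the reproductive cluster, was 9.35 and 8.89 against 10.60 and 9.79 (1.08 ± 0.25, adjusted p = 0.0173). The WT arrays of Rhox5 were as far apart as its nearest WT and BERKO arrays, and its call was lost without WT array 2 (0.85) or BERKO array 1 (0.68). None of the 4 nearest tested genes of Klhl13 or of Rhox5 was called.

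H1f5, a linker histone, had a mean of 8.98 in WT and 10.01 in BERKO. Dyrk3, a kinase that dissolves stress granules, was 9.54 and 9.65 against 10.59 and 10.40, and Ak4, a mitochondrial adenylate kinase, was 8.12 and 8.15 against 8.99 and 9.06. Ldhb, the lactate dehydrogenase subunit that favours pyruvate, was 11.69 and 11.55 in WT and 12.47 and 12.33 in BERKO (0.78 ± 0.12, adjusted p = 0.000574). Ctps, which makes CTP, was 11.27 and 11.26 against 12.20 and 11.82, with most of the rise in BERKO array 1. Lbr, the lamin B receptor, showed the same pattern, at 11.48 and 11.50 against 12.35 and 11.99. Without BERKO array 1, Ctps was 0.56 and Lbr 0.49 and neither was called. The calls of Ctps and Lbr were also lost without either WT array, that of Dyrk3 without WT array 1 or BERKO array 1, and that of H1f5 whichever array was left out, at differences of 0.67 to 1.14. Slco4c1, an organic anion transporter, and Tspan6, a tetraspanin, rose by 0.70 and 0.69 from levels below background. Among genes below background in both lines, Pramel6 rose by 1.10, its neighbour Pramel7 by 0.54, the export factor Nxf3 by 1.01, the splicing regulator Esrp1 by 0.87 and the growth factor Fgf17 by 0.92.

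**Figure D2:**
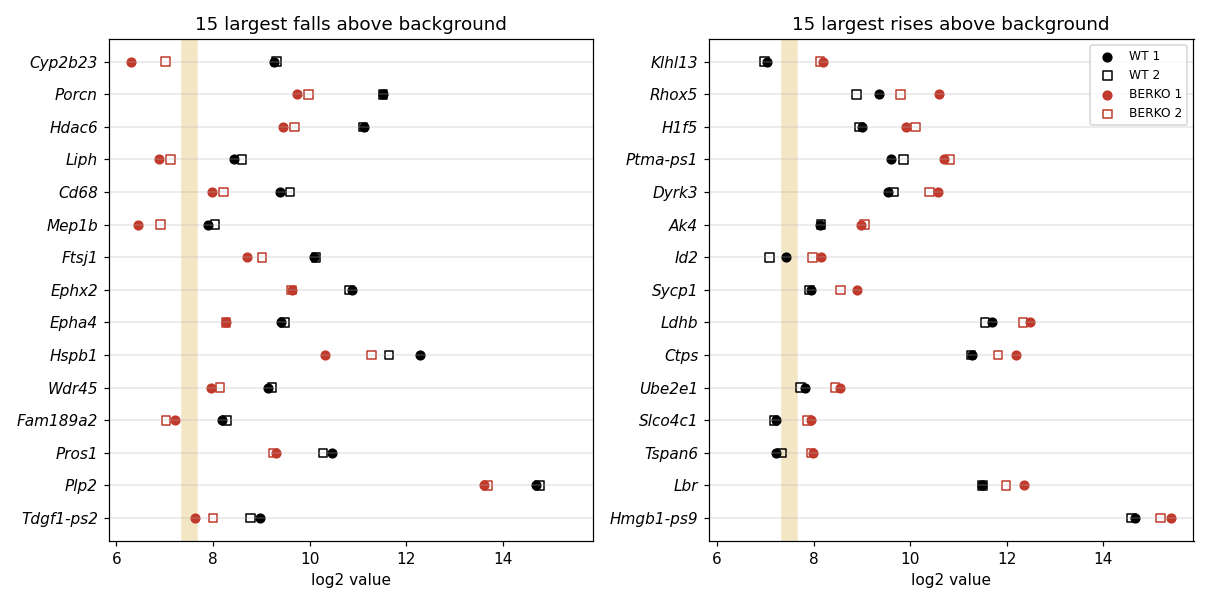
Log2 value of each of the 4 arrays (circles for array 1 and squares for array 2, black for WT and red for BERKO) for the 15 largest falls (left) and the 15 largest rises (right) among named genes above background in at least 1 line; the shaded band is the range of the background level. The choice of genes required black and red symbols to be apart. Between the means, they are apart by 2.64 for Cyp2b23 on the left and by 1.15 for Klhl13 on the right. Hspb1 and Rhox5 have widely spaced symbols within a line.

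These leading genes differed in how they held up. Of the 15 largest falls, 12 stayed called in every other setting in which they were tested, and so did 12 of the 15 largest falls above background. Of the 15 largest rises, 6 stayed called in every such setting (Ak4, Esrp1, Fgf17, Klhl13, Luzp4 and Nxf3), and of the 15 largest rises above background 2 did (Ak4 and Klhl13). The settings include the fit of the 4 mESC arrays alone and each array left out in turn.

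A group of lower genes lay side by side on the X chromosome. From Shroom4 to Rpgr in the annotation's order, 46 protein-coding genes were tested, and 21 of them were called lower and none higher. The bounds of this stretch were set after the values were seen. It held 11 genes above background, and all 11 were called lower, with a median difference of -1.051, which is 48.3% of the WT level. Clcn5 and Tbc1d25 passed this filter through the WT arrays alone, the line in which they were higher, so the filter favours falls there. Of the 35 genes of the stretch not above background, 10 were called lower, and the median difference was -0.2. Among all genes tested, 2.53% were called lower.

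Porcn, the enzyme that attaches the lipid Wnt proteins need for secretion, was 11.52 in both WT arrays and 9.73 and 9.97 in BERKO (-1.67 ± 0.11, adjusted p = 1.63e-07). Hdac6, the cytoplasmic deacetylase of tubulin, was 11.13 and 11.10 in WT and 9.45 and 9.69 in BERKO (-1.54 ± 0.14, adjusted p = 4.22e-06). Ftsj1, which methylates transfer RNA, was 10.09 and 10.13 against 8.71 and 9.01 (-1.25 ± 0.14). In these genes BERKO array 1 was the lower of its pair. Wdr45, an autophagy gene, was 9.13 and 9.22 in WT and 7.95 and 8.14 in BERKO (-1.13 ± 0.08, adjusted p = 1.63e-07). Clcn5, an endosomal chloride-proton exchanger, was 8.22 and 8.17 against 7.11 and 7.16, which is below background. Pqbp1, a splicing protein, was 10.94 and 10.82 against 9.67 and 9.98.

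The other 5 genes of the stretch above background fell by less than 1. Rbm3, the cold-inducible RNA-binding protein, was 13.16 and 13.07 in WT and 12.13 and 12.25 in BERKO. Praf2, a transport protein of the secretory pathway, was 10.35 and 10.30 against 9.49 and 9.43. Otud5, a deubiquitinase, was 9.01 and 8.94 against 8.14 and 8.18. Timm17b, a subunit of the mitochondrial import channel, was 8.91 and 8.79 against 8.18 and 8.17. Tbc1d25, a regulator of autophagosome fusion, was 7.56 and 7.59 against 6.65 and 6.75, the latter below background. No array of one line reached the other line in any of these 11 genes, as in every called gene and 47.8% of all tested genes. With any 1 of the 4 arrays left out, each of the 11 kept a difference of -0.61 or lower. Members called lower at levels below background included Eras (-1.08), a constitutively active Ras protein of stem cells, and Gpkow (-0.94). Ebp (-0.88), a sterol isomerase, Shroom4 (-0.83) and Rpgr (-0.65) were others.

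Genes just outside the stretch were called rarely, but the bounds were set from these values, so this is no test of its ends. Of the 15 tested genes that follow Rpgr, 7 were above background, and none of these was called lower. Atp6ap2, a subunit linked to the proton pump, was 10.95 and 10.74 in WT and 10.80 and 10.70 in BERKO. Med14, a Mediator subunit, was 10.94 and 11.03 against 11.08 and 11.18, and the deubiquitinase Usp9x was 15.50 and 15.42 against 15.34 and 15.29. Maoa, the monoamine oxidase, was the single called gene among the 15 (0.43 ± 0.09, higher), and its call was lost without WT array 2 (0.28) or either BERKO array (0.46 and 0.39). The 7 tested genes before Shroom4 all lay below background, 1 was called higher and none lower, so this side of the stretch has no gene with a clear level.

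The same 11 genes were called lower in BERKO at each of the other stages. Those arrays gave no value to the mESC difference, but all stages share the same estimate of the spread per gene. The later calls are therefore not independent of the calls in mESC. Their median difference was -0.878 in NPC, -1.124 in mDPC and -0.956 in MN. The background of lower calls was 5.08% of tested genes in NPC, 5.32% in mDPC and 7.31% in MN. The size of the difference was not the same at every stage for all of them: the test of the difference from mESC was passed by 3 of 11 genes for NPC, 2 for mDPC and 2 for MN. Of all tested genes, 9.6%, 10.6% and 15% passed these tests. Porcn, for instance, was -1.67 in mESC and -0.96 in NPC. Mid1ip1, the gene after Rpgr, was below background and not called in mESC but was lower at each later stage, by 0.72, 0.66 and 1.03. Genes below background therefore leave the end of the stretch unplaced in mESC.

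**Figure D3:**
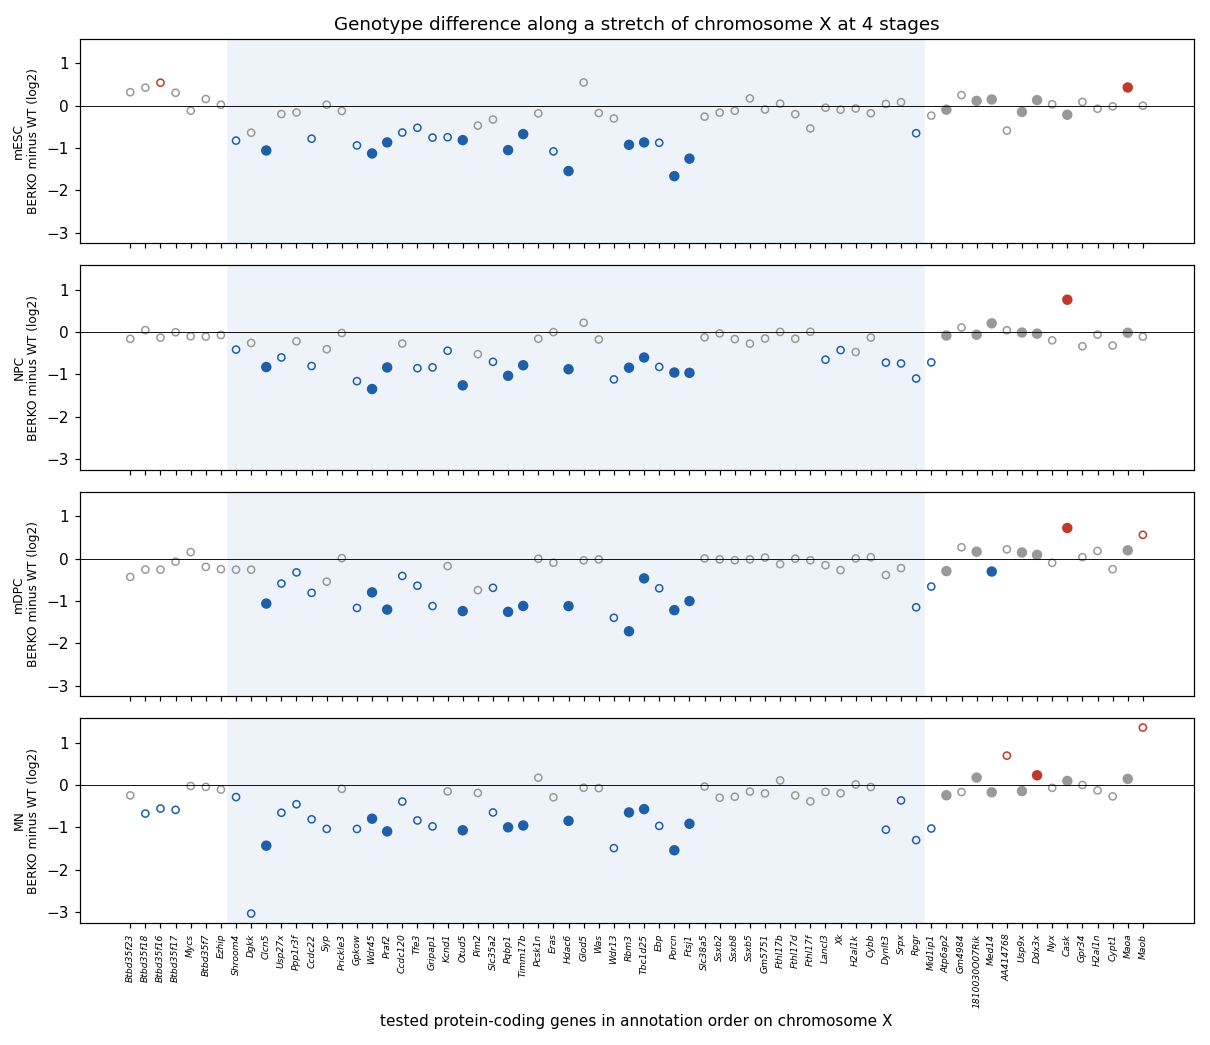
Difference between BERKO and WT (log2) for tested protein-coding genes in annotation order on the X chromosome, 1 panel for each stage on a common vertical scale; filled symbols are genes above background in mESC, blue is called lower, red called higher and grey not called. The shaded stretch from Shroom4 to Rpgr holds 11 filled symbols, all blue at all 4 stages, while the filled symbols to its right lie near 0 in mESC.

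Genes elsewhere on the X chromosome leaned the other way. Of 152 other X-linked protein-coding genes above background, 15 were called higher and 2 lower, with a median difference of 0.115. Autosomal genes of the same kind had a median of -0.024, with 74 higher and 256 lower among 4679. That is 11.2% called, against 7.05% of the autosomal genes. Klhl13, Tspan6 and Maoa passed the background filter through the BERKO arrays alone, and Efhc2 through the WT arrays alone. Each was higher in that line, so the filter favours such calls. Beside Klhl13, Rhox5 and Tspan6, the higher genes included Map7d3 (0.67), Pcyt1b (0.68), Hmgn5 (0.66), Vbp1 (0.57), Prps1 (0.57) and Phf6 (0.48). These 6 were picked after their values were seen. The calls of Map7d3, Vbp1 and Phf6 held with any 1 array left out, while Pcyt1b was lost without WT array 1 (0.64) or BERKO array 2 (0.51), Prps1 without WT array 2 (0.52), and Hmgn5 without either WT array (0.64 and 0.68) or BERKO array 1 (0.52). The 2 lower genes were Efhc2 and Usp11. Efhc2 was 8.65 and 8.31 in WT and 7.70 and 7.50 in BERKO (-0.88 ± 0.10, adjusted p = 3.4e-05). Usp11, a deubiquitinase, was 10.62 and 10.76 against 9.92 and 10.26 (-0.59 ± 0.15), and its call was lost without either WT array (-0.66 and -0.53) or BERKO array 1 (-0.42). Map7d3 was also called higher at all 3 later stages. Xist did not differ and was below background in both lines.

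Vamp7, Tmlhe and Plp2 were also lower and were not counted in the stretch. By their cluster names, Vamp7, a vesicle fusion protein, and Tmlhe, an enzyme of carnitine synthesis, lie on a separate X scaffold. They were lower by 1.05 and 0.73, Tmlhe at levels below background. The other tested genes there, Spry3 (-0.32) and Zf12 (0.006), were not called. Tmlhe was called lower in NPC (-0.46) but was not called in mDPC (0.11) or MN (-0.08). Vamp7 was 10.42 and 10.30 in WT and 9.46 and 9.16 in BERKO and was called lower at all 4 stages. Plp2, a membrane protein gene, was 14.68 and 14.76 in WT and 13.60 and 13.68 in BERKO. The annotation gives Plp2 to the X chromosome, but the cluster used lies on chromosome 13 by its name. Plp2 was therefore not placed along the X chromosome, and whether it lies inside the stretch was not examined. Its X-linked cluster gave -0.88.

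Of 24 naive and core pluripotency genes, which hold stem cells in self-renewal, 3 were called higher (12.5%, against 1.68% of all tested genes) and none lower, and the median difference of the list was 0.12 against 0.03 for all genes. Beside Dppa3 these were Gdf3, a TGF-beta family ligand, at 10.42 and 10.28 in WT and 10.62 and 11.06 in BERKO, and Dppa4, a chromatin protein, at 10.14 and 9.90 against 10.36 and 10.38. Gdf3 and Dppa3 are neighbours in the annotation. Nanog, which follows them, was 16.31 and 16.24 against 16.57 and 16.59, a difference of 0.30 ± 0.13 that was not called. Pou5f1, Sox2, Klf4 and Esrrb were not called, with differences from -0.28 to 0.14. Of 12 formative and primed genes, Otx2 (0.39), Grhl2 (0.34) and Lef1 (0.30) were called higher (25%), all at levels below background. The call of Dppa4 was lost without WT array 2 (0.23) or either BERKO array (0.36 and 0.34), and that of Gdf3 without either WT array (0.56 and 0.42) or BERKO array 2 (0.28). The calls of Otx2, Grhl2 and Lef1 were lost in 4, 3 and 4 of the 4 fits that left out 1 array, at 0.26 to 0.40. No gene of either list was called when only the 4 mESC arrays were fitted.

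Several germline genes were higher in BERKO. Of 21 tested, 6 were called higher (28.6%, against 1.68% of all tested genes) and 1 lower (4.76%, against 2.53%), with a list median of 0.05. Sycp1, the central rod of the meiotic synaptonemal complex, was 7.94 and 7.91 in WT and 8.91 and 8.56 in BERKO (0.81 ± 0.10, adjusted p = 9.32e-05). Ddx4, the germ cell RNA helicase, was 8.38 and 8.24 against 8.97 and 8.84, and Dazl, an RNA-binding protein of germ cells, was 9.64 and 9.73 against 10.25 and 10.21. Tex11 (0.67), Asz1 (0.40) and Mov10l1 (0.30) rose at levels below background. Stra8, the gene that meiotic entry needs, was the one called lower (-0.30). In the Rhox cluster, Rhox5 was called (16.7% higher, against 1.68% of all tested genes) and the other 5 tested genes were not, at -0.06 to 0.33. With 1 array left out, 3 to 5 germline genes were called higher, and none was when only the 4 mESC arrays were fitted. Ddx4 was lost without WT array 2 (0.52) or BERKO array 1 (0.53), and Asz1, Mov10l1 and Stra8 were lost whichever array was left out, at 0.27 to 0.47 for the first 2 and -0.35 to -0.26 for Stra8.

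Imprinted genes included 3 lower and no higher calls among 23 tested (13% lower, against 2.53% of all tested genes), with a median of -0.06. Impact, a regulator of the Gcn2 kinase expressed from the paternal allele, was 12.36 and 12.31 in WT and 11.34 and 11.35 in BERKO (-0.99 ± 0.11, adjusted p = 4.07e-05). Peg10, a retrotransposon-derived gene of the placenta, was 11.01 and 10.99 against 10.19 and 10.23 (-0.79 ± 0.21, adjusted p = 0.0404). Plagl1, a zinc finger factor, had a mean of 7.03 against 6.44, below background. All 3 were called lower at all 4 stages, while Grb10 (0.76) was not called in mESC. Of 14 tested DNA methylation genes, only Mbd1, a reader of methylated DNA, was called (7.14% lower, against 2.53% of all tested genes). Its difference was -0.37 at levels below background, and the writers Dnmt1, Dnmt3a, Dnmt3b and Dnmt3l were not called. Peg10 and Mbd1 lost their calls whichever array was left out, at -0.81 to -0.77 and -0.38 to -0.35, while Impact and Plagl1 stayed called. Of the imprinted genes, 2 were called lower when only the 4 mESC arrays were fitted.

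Zscan4 genes, which are switched on in the 2-cell embryo and in a rare 2-cell-like state of stem cell cultures, were lower in BERKO. Among 7 tested genes of a 2-cell-like list, the 3 called lower were Zscan4f, Zscan4d and Zscan4c (42.9%, against 2.53% of all tested genes), and none was when only the 4 mESC arrays were fitted. Zscan4f was 7.61 and 7.38 in WT and 6.80 and 6.001 in BERKO (-1.09 ± 0.19, adjusted p = 0.00222). Zscan4c was 5.88 and 5.91 against 5.43 and 5.09, and Zscan4d was 5.57 and 5.39 against 4.55 and 4.97. The other members of the family were looked at after these values were seen. Zscan4a (-0.71), Zscan4b (-0.93) and Zscan4e (-0.79) were called lower as well. Zscan4c and Zscan4f stayed called whichever array was left out. Zscan4d lost its call without WT array 1 (-0.63) or BERKO array 1 (-0.51), Zscan4b without WT array 2 (-0.87) or BERKO array 2 (-0.81), Zscan4e without WT array 1 (-0.52) or BERKO array 1 (-0.67), and Zscan4a without either WT array (-0.71 and -0.70) or BERKO array 2 (-0.39). These genes are near-identical copies, so the probes of one can read another, and the 6 entries are not 6 separate results. Zscan4 transcripts come from few cells in such cultures, and fewer such cells and less RNA per cell cannot be told apart in bulk arrays.

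Zscan4 genes were also those among the called genes whose promoters held a full estrogen response element. The element searched was GGTCA, then any 3 bases, then TGACC, which reads the same on both strands, in windows from 250 bases before to 50 bases after each gene start (RefSeq, GRCm38.p6). It was found in 23 of 32851 windows (0.07%) and in 5 of 13032 tested genes with a window (0.0384%). Zscan4b, Zscan4c and Zscan4f held it and were called lower. Hbb-y (0.10) and Pde10a (-0.03) held it and were not called. Of the 162 genes called higher with a window, none held it, but these are too few to show a share below 0.0384%. The stretches below start 5 bases before the element and show its letters in capitals. The window of Zscan4d begins with the same last 8 letters. The bases before them were not read, so a full element was not seen there. Zscan4a and Zscan4e had no window.
Zscan4b, chr7:10905217-10905276, minus strand: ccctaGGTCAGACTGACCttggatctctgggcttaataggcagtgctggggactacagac
Zscan4c, chr7:11005496-11005555, plus strand: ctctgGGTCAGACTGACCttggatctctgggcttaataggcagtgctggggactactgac
Zscan4f, chr7:11397689-11397748, plus strand: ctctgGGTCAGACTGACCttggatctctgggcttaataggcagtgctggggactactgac
Zscan4d, chr7:11166349-11166398, minus strand: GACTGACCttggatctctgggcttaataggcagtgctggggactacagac
The elements start 221, 244 and 221 bases before the gene starts of Zscan4b, Zscan4c and Zscan4f. These are copies of 1 ancestral sequence, so they count as 1 occurrence. The single arm GGTCA, on either strand, was held by 40.7% of genes called higher, 41.6% of genes called lower and 42.2% of tested genes. A match of letters does not show that a receptor binds there.

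Among 30 tested Wnt genes, 5 were called (16.7%, against 4.21% of all tested genes), 2 higher (Notum and Lef1, both 0.30) and 3 lower (Porcn, Cdx1 at -0.63 and Wls at -0.44), with a median of -0.03. Wls carries lipidated Wnt proteins to the cell surface, the step after Porcn, and was 6.91 and 6.69 in WT and 6.34 and 6.37 in BERKO, below background. Axin2, a feedback target of Wnt signalling, was -0.31 and not called. Among 19 tested BMP, Nodal and Id genes, 15.8% were called, against 4.21% of all tested genes, 2 higher and 1 lower. Id2, an inhibitor of helix-loop-helix factors, rose from 7.42 and 7.09 to 8.16 and 7.98 (0.81 ± 0.20, adjusted p = 0.0279). Bmp4 was 9.46 and 9.37 in WT and 8.82 and 8.64 in BERKO (-0.68 ± 0.19, adjusted p = 0.0446). Id1 and Id3, which like Id2 are known targets of BMP signals, were -0.23 and 0.08 and were not called. Bmp4 lost its call whichever array was left out (-0.77 to -0.59), and Id2 without WT array 2 (0.65) or either BERKO array (0.73 and 0.90). Notum and Lef1 lost theirs in at least 3 of these 4 fits (0.16 to 0.34), and Cdx1 (-0.39) and Wls (-0.34) lost theirs without WT array 1.

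None of 16 tested genes of FGF and ERK feedback was called, although Spry4 (-0.57), Spry2 (-0.49) and Dusp6 (-0.46) lay lower in BERKO. In the LIF and Stat3 list, 1 of 14 was called (7.14% lower, against 2.53% of all tested genes), Gbx2 (-0.43) at levels below background. Of 15 tested estrogen receptors, coregulators and known targets, Esr2 and Tfap2c (0.77), a factor of trophectoderm and germ cells, were called higher at levels below background. That is 13.3%, against 1.68% of all tested genes. Another 1 was called lower (6.67%, against 2.53% of all tested genes). Myc, at 8.64 in both WT arrays and 8.22 and 8.40 in BERKO, was called lower (-0.33 ± 0.08), but not without BERKO array 1 (-0.24) or either WT array (both -0.33). Gbx2 lost its call whichever array was left out (-0.49 to -0.37). The target Greb1 was below background at a difference of -0.01, and Xbp1 (0.35) was not called.

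Of 17 tested p53 targets, 4 were called lower (23.5%, against 2.53% of all tested genes) and none higher, with a median of -0.11. None was called when only the 4 mESC arrays were fitted. Sesn1, a stress-induced inhibitor of mTOR signalling, was 9.71 and 9.56 in WT and 9.12 and 8.89 in BERKO (-0.63 ± 0.13, adjusted p = 0.00956). Trp53inp1 was 11.13 and 11.18 against 10.69 and 10.73. Pmaip1 (-0.51), which promotes apoptosis, and Polk (-0.41), a polymerase that copies damaged DNA, were the others. Cdkn1a, the cell cycle inhibitor most often used as a p53 readout, was -0.65 and not called, and Btg2 (0.73) lay in the opposite direction and was not called either. With 1 array left out, 0 to 2 of the list were called lower: Trp53inp1 was lost in all 4 of these fits (-0.47 to -0.42), Pmaip1 without either WT array (-0.50 and -0.52) or BERKO array 2 (-0.31), Polk without WT array 1 (-0.38) or BERKO array 1 (-0.32), and Sesn1 without WT array 1 (-0.56) or BERKO array 2 (-0.52).

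Proliferation genes did not differ by the test. None of 26 was called, with differences from -0.25 to 0.30 and a median of 0.07. The same held for the lists of endoderm (13 tested, -0.25 to 0.37), mesoderm (7, -0.25 to 0.15), early neural genes (13, -0.13 to 0.69), hypoxia and glycolysis (23, -0.39 to 0.31) and oxidative stress (17, -0.46 to 0.37). Single genes passed in several other lists, at 5% to 7.69% of each list, against 4.21% of all tested genes. Vim, the intermediate filament of mesenchymal cells, was 14.67 and 14.55 in WT and 13.84 and 13.91 in BERKO (-0.74 ± 0.12), the one call among 17 fibroblast and mesenchyme genes. Hmgcs1, an early enzyme of cholesterol synthesis, was 14.22 and 14.13 against 13.66 and 13.62, the one call among 13. Cth (-0.37) was the one call among 20 genes of the Atf4 response, and Oas1a (0.74) was the one among 20 interferon genes, at levels below background. Hdac6 was the one call among 14 histone deacetylases, and the others lay between -0.15 and 0.24. The calls of Vim, Oas1a and Hdac6 held whichever array was left out, and those of Hmgcs1 (-0.58 to -0.49) and Cth (-0.39 to -0.36) were lost in all 4 of these fits.

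**Figure D4:**
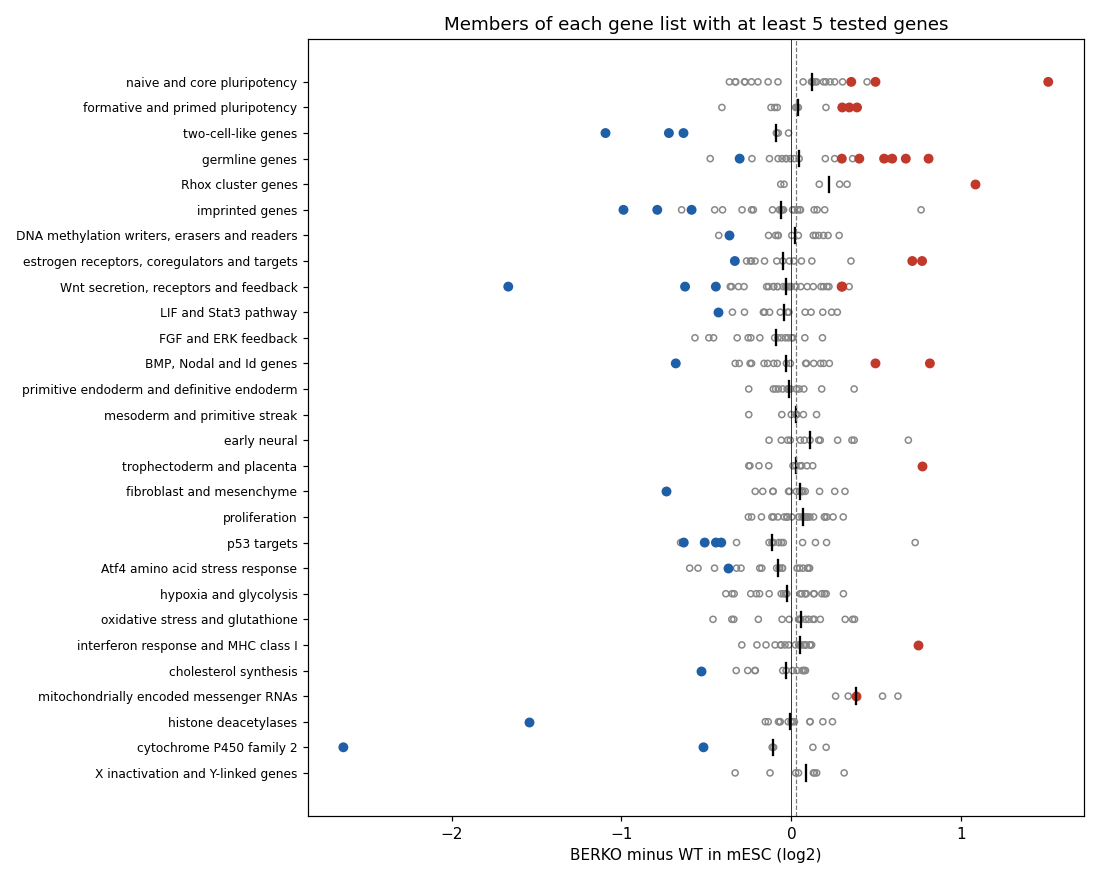
Difference between BERKO and WT stem cells (log2) for each tested member of 28 gene lists with at least 5 tested genes; filled red and blue symbols are called higher and lower, open symbols are not called, black ticks are list medians and the dashed line is the median of all genes at 0.03. Called members lie singly at the edges of most lists, such as Porcn at -1.67 and Dppa3 at 1.51, while list medians stay between -0.11 and 0.38.

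Of the 72 genes called and at least 2-fold apart, 37 to 50 were still called with 1 array left out. Of the 49 genes at least 2-fold lower, 22 were small nucleolar RNA (snoRNA) entries, and 20 of these lie on chromosome 7 between Ube3a and Snurf, an imprinted region. These 20 entries had 8 distinct profiles over the arrays, so several share their probes. Their median level was 12.53 and 12.49 in the WT arrays and 11.14 and 10.91 in the BERKO arrays. Differences ran from -1.68 to -1.46, with SEs of 0.35 to 0.41 and adjusted p from 0.00851 to 0.0381. None of the 20 was called without WT array 1, WT array 2 or BERKO array 1, and 1 was without BERKO array 2, at median differences of -1.68 to -1.47. In NPC the same 20 entries were called higher in BERKO, by 1.95 to 2.20. The test of the difference between mESC and NPC was passed by all 20, and that between mESC and mDPC by all 20 as well. Differences were 0.51 to 0.67 in mDPC and -0.90 to -0.67 in MN, and none was called at either stage. No entry passed the test of the difference between mESC and MN.

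Of 69 entries named for 5S ribosomal RNA, the annotation classes 51 as ribosomal RNA and 18 as pseudogenes. Their median difference was 0.73, against 0.03 for all genes. Of the 69, 37 were called higher and none lower, where 1.68% of all tested genes were called higher. The count was 24 without WT array 2 or BERKO array 1, 41 without WT array 1 and 0 when only the 4 mESC arrays were fitted. They had 38 distinct profiles, and their median level was 15.16 and 14.76 in WT and 15.74 and 15.49 in BERKO. In NPC, 37 entries were called higher, with a median of 0.42, where 10.6% of all tested genes were called higher. None of the 69 passed the test of the difference between mESC and NPC. The medians in mDPC and MN were -0.11 and -0.1, and none was called there. The transcript mt-Tk, the mitochondrial transfer RNA for lysine, was 11.90 and 11.77 in WT, 15.65 in BERKO array 1 and 13.04 in BERKO array 2 (2.51 ± 0.59, adjusted p = 0.0198). The BERKO arrays thus differed by more from each other than array 2 differed from WT, and without BERKO array 1 the difference was 1.21 and not called. The call was also lost without either WT array (2.58 and 2.45). Of 5 mitochondrial messenger RNAs with a cluster, ND3 was called higher (0.38) and the other 4 were not, at 0.26 to 0.63. That is 20% called higher, against 1.68% of all tested genes. ND3 lost its call without WT array 2 (0.30) or BERKO array 1 (0.23).

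Of the 72 genes at least 2-fold apart in mESC, 18 of the 23 higher and 35 of the 49 lower genes were called in the same direction at none of the 3 later stages. Some of these were far below background in both lines later, where a difference may go unseen. Cyp2b23, Liph, Aox3 and Dppa3 had means of 2.95 to 3.60 in MN. Of the 23 higher genes, 4 were also called higher in NPC, 1 in mDPC and 1 in MN, where 10.6%, 8.51% and 13.5% of all tested genes were called higher. Of the 49 lower genes, 13 were also called lower in NPC (26.5%), 10 in mDPC (20.4%) and 11 in MN (22.4%), where 5.08%, 5.32% and 7.31% of all tested genes were called lower. The X-linked stretch supplied 6 of these at each stage out of its 7 members among the 49. Of the 22 snoRNA entries, 20 were called in the opposite direction in NPC. Of the remaining 20 lower genes, 6, 4 and 4 were called lower again, and 0, 4 and 5 were called higher. The 3 of these called lower at all stages were Plp2, Vamp7 and Snapc1, a subunit of the factor for small nuclear RNA genes. Ephx2 was -1.23 in mESC, -0.06 in NPC, 0.69 in mDPC and 1.12 in MN, with the later means below background. Epha4 was -1.18 in mESC and 0.77 in mDPC. The BERKO arrays of all stages carry the same line label, so the stages are separate cultures but not separate knockouts as far as the labels say.

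**Figure D5:**
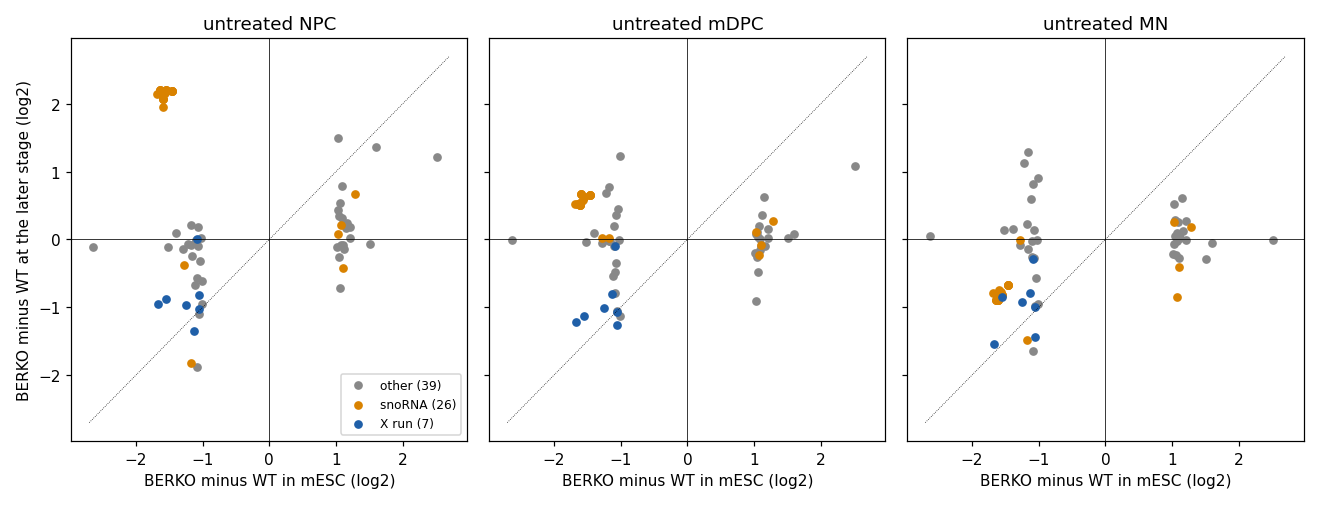
Difference between BERKO and WT in untreated NPC, mDPC and MN (vertical axes, log2) against that in mESC (horizontal axes, log2) for the 72 genes called and at least 2-fold apart in mESC; orange marks snoRNA entries, blue the 7 genes of the X-linked stretch and grey the others, and the dotted line marks equal differences. The blue symbols lie in the lower left quadrant or near 0, and the group of 20 snoRNA entries lies above 1.9 in NPC.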

How the data were processed

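The deposited values are log2 signals per transcript cluster, which the authors made with SST-RMA in Affymetrix Expression Console 1.4, per the labels; RMA and the Transcriptome Analysis Console are named without versions in the submitters' processing notes. RNA input was 150 ng per array. Of 65956 clusters, 30604 had 1 gene symbol, which covered 30142 genes (highest cluster per gene). Genes above the array's median in at least 2 of 29 arrays were tested, which left 22063. limma 3.58.1 in R 4.3.3 fitted 14 group means to all 29 arrays (15 residual degrees of freedom), with Benjamini-Hochberg adjustment over all genes, 2-sided. The number of arrays limits the precision.

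Named genes were Esr1, Esr2, Xist and Y-linked genes, the 15 largest rises and falls (also among genes above background; predicted genes, small RNAs and receptor families left out), up to 4 called members per list and the 2 nearest tested genes on each side of the 5 largest changes. Members and lists were chosen with earlier results of these data known, so they are not independent evidence. The array's genome build is not given in the sources used here, so gene order is from RefSeq GRCm38.p6 without coordinates. The model was tested on simulated data. Alternatives changed the filter, scaling, prior, samples fitted and replicates. Figures used matplotlib 3.10.9.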

Additional observations from a re-analysis of the deposited data

Results flagged for a closer look

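The genotype difference was not the same at all stages. The interaction contrast of the limma model, the difference in mESC minus the difference at a later stage, passed for 2119 genes against NPC, 2346 against mDPC and 3307 against MN. Of the 30 largest rises and falls in mESC, 28 passed at 1 or more later stages and 17 at all 3. These genes were chosen by their mESC difference, which is a term of the contrast, so these counts are a description; of all tested genes, 9.6%, 10.6% and 15% passed. The largest adjusted p among the values below is 0.0423, and each value is the mESC difference minus that of the stage where it is largest.

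Against MN, the falls gave -2.68 for Cyp2b23, -2.46 for Hspb1, -2.35 for Ephx2, -1.70 for Fam189a2, -1.66 for Liph, -1.54 for Cd68, -1.08 for Aox3, -0.70 for Hdac6 and -0.33 for Wdr45. Hspb1 and Ephx2 were higher in BERKO in MN. The background of the untreated MN arrays was 6.63 to 6.94. Mean levels in WT and BERKO lay below it there for Cyp2b23 (3.56 and 3.60), Liph (2.97 and 3.12) and Aox3 (3.16 and 3.14). Cd68 (4.90 and 5.05) and Ephx2 (5.47 and 6.59) were below it too. A difference between lines may go unseen at such levels, so these contrasts need not mean a changed genotype effect. Against mDPC, the values were -1.95 for Epha4, -1.29 for Zscan4f, -1.23 for Mep1b and -1.14 for Xlr5b. Zscan4f, Mep1b and Xlr5b were below background in both lines in mDPC, at means of 3.10 to 4.22. Porcn gave -0.71 against NPC.

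For the rises, the values against MN were 1.80 for Dppa3, 1.39 for Pcdhb3, 1.38 for Pramel6, 1.23 for Nxf3, 1.15 for Luzp4, 1.10 for Ptma-ps1, 1.01 for Esrp1 and 0.78 for Ak4. Against mDPC they were 1.94 for H1f5, 1.31 for Cyct and 0.84 for Dyrk3, and against NPC 1.16 for Rhox5, 1.11 for Fgf17 and 0.98 for Klhl13. Mean levels of both lines in MN were below background for Dppa3, Pramel6, Nxf3, Luzp4, Esrp1 and Ak4, at 2.93 to 6.38. The same held in mDPC for H1f5, Cyct and Dyrk3 (2.91 to 5.61) and in NPC for Rhox5 and Fgf17 (3.62 to 3.81). Differences at such levels may go unseen as well. Of the small RNAs, 20 chromosome 7 snoRNA entries differed between mESC and NPC and between mESC and mDPC, and none between mESC and MN. Of 69 5S ribosomal RNA entries, 32 differed between mESC and mDPC and 38 between mESC and MN, and none between mESC and NPC. With 2 arrays per line in mESC, no single array could be tested as an outlier.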

How the results depend on the processing

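No paired analysis was possible because the titles of the BERKO and WT arrays share no replicate number. With the 4 mESC arrays alone, 16 genes were called higher, 141 lower and 127 at least 2-fold. With untreated arrays alone, 372 were called lower. With arrays whose titles share a number averaged, which leaves 1 BERKO array assumed to vary like the other groups, 124 were higher, 211 lower and 41 at least 2-fold. Leaving out 1 mESC array, which likewise leaves a lone array, gave 130 to 491 higher, 218 to 559 lower and 46 to 147 at least 2-fold, with 10 to 18 same-direction calls in mDPC. Testing genes above background alone, the differences from NPC, mDPC and MN numbered 1143, 1172 and 1207, with 7056 genes tested. The cause of the other changes was not tested.

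The 11 X-linked genes were all called lower in 14 of 15 settings and 9 of them in the fit of the mESC arrays alone. Of 97 called genes checked one by one, 93 stayed called with centring, 88 with quantile normalization, 59 with averaging, 61 to 73 with an array left out and 29 with the mESC arrays alone, and none changed direction. Genes that were not called changed sign. Esr1 was -0.00886 with quantile normalization, -0.0117 with centring and -0.0494 to 0.0782 with 1 array left out. Xist was -0.00122 with centring and -0.0208 to 0.0705 with 1 array left out, Ddx3x was -0.0517 with quantile normalization, and Atp6ap2 was -0.205 to 0.0123 with 1 array left out.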
